A study of Mus musculus with 2 samples.

Results

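The cells described here were barcodes from embryonic mouse thymus that carried transcripts of the T-cell receptor partner Cd3d together with Sox13 or Blk, genes known from gamma-delta T cells. A barcode was kept with at least 500 detected genes, at most 10% mitochondrial UMIs (unique molecular identifiers, 1 per captured transcript) and at most 1 UMI of the epithelial genes Krt8, Krt18 and Prss16 together. It was then required to hold at least 600 CPM of Cd3d, at least 100 CPM of Sox13 and Blk together and fewer than 3 UMIs of Cd8b1, where CPM are UMIs scaled to a barcode total of 1000000. The barcodes were thus selected on measured levels of these genes. The rule found 160 barcodes among 6057 in all and among 5187 that passed the filters, which is 3.08% of those that passed (exact Clopper-Pearson 95% interval 2.63 to 3.59%). The Cd8b1 limit removed 0 of them. Intervals here cover counting error only.

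DN1 cells, the fraction of the thymus in which the youngest progenitors and innate lymphoid cells are found, were sorted by flow cytometry from the embryonic thymus of 5x polychromILC mice at E15.5 and E19.5, with 1 10x 3′ library per stage. All barcodes come from mice of this reporter strain. No label ties the barcode suffixes (1 and 2) of the pooled count table to a stage. The labelled extraction ends in a lysis to nuclei extract, and it is left unsettled here if cells or nuclei went onto the chip. All barcodes therefore stand as 1 pooled sample, and no p-value is given for any difference.

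Gamma-delta T cells carry a T-cell receptor of a gamma and a delta chain and leave the fetal thymus in waves. Some of them are committed in the thymus to make interleukin-17, under the transcription factors Sox13, Sox4 and Maf and with the tyrosine kinase Blk, whereas others make interferon-gamma under the T-box factor Tbx21. The interleukin-17 cells of the fetal wave are known for Cd163l1, a scavenger receptor also called SCART1, for Zbtb16, which encodes PLZF, and for the receptors Il23r and Il1r1.

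The regions before a start site of 4 genes are shown because the barcodes differed among themselves in these genes, which form 2 neighbouring pairs. Il17a and Il17f, the genes of 2 related interleukin-17 cytokines, lie on chromosome 1 at 20730905 to 20734496 on the forward strand and 20777146 to 20790617 on the reverse strand (GRCm38), 42.6 kb apart. Cd163l1 and 5830411N06Rik, a gene next to it, lie on chromosome 7 at 140218267 to 140231145 and 140247284 to 140300736, both on the forward strand and 16.1 kb apart. Each sequence holds the 200 bases before a start site, 5′ to 3′ on the strand of the gene, from RefSeq windows (GRCm38.p6). For 5830411N06Rik the most upstream RefSeq start of 3 is at 140247301, and the 17 bases just before it were left out. They lie inside the gene in GENCODE, so the window stands before the GENCODE start at 140247284. For Il17f the RefSeq start, at 20784270, lies inside the interval above, since GENCODE places a start of the gene further upstream, at 20790617. Capitals mark a TATA box (TATAAA), a MAF half-site (TGCTGA) or a TCF/LEF site (CTTTGAT).
Il17a, chr1:20730705-20730904, forward strand: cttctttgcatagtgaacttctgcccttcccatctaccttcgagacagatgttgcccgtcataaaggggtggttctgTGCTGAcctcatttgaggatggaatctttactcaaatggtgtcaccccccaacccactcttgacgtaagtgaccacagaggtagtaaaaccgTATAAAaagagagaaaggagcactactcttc
Il17f, chr1:20784271-20784470, reverse strand: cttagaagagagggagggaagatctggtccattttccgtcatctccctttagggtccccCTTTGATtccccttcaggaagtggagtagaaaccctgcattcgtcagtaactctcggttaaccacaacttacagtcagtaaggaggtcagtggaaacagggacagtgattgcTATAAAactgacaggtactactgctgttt
Cd163l1, chr7:140218067-140218266, forward strand: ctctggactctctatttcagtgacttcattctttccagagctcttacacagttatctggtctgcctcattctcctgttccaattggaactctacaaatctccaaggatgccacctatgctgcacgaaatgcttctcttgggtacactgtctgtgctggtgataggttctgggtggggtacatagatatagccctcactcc
5830411N06Rik, chr7:140247084-140247283, forward strand: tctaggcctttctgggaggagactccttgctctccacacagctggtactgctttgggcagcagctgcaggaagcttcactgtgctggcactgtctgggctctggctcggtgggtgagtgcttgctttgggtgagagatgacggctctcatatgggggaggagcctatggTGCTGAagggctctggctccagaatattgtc

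Of the motifs searched on both strands, TATAAA lay 31 bases before the start of Il17a and 29 bases before that of Il17f. It is held by 9.96% of 32851 windows of this length. The MAF half-site TGCTGA, held by 13.2% of windows, lay 123 bases before the Il17a start and in the last part of the 5830411N06Rik window. The TCF/LEF site CTTTGAT, held by 2.45% of windows, was matched in the Il17f window only. The SOX site AACAAT (7.46% of windows) and the AP-1 site TGANTCA (5.48%) matched none of the 4. A match describes these letters and is no evidence of binding. The Cd163l1 window held none of the 5 motifs.

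The 160 barcodes had a median of 14816.5 UMIs (5726 to 52262) and 3525 genes, and 2575053 UMIs in all. Suffix 1 gave 7 of them, 0.372% of its 1884 passing barcodes, and suffix 2 gave 153, 4.63% of 3303. The results below thus rest on suffix 2. Between the suffixes 25 barcode sequences were shared, 0 of them among the gamma-delta T-like barcodes. Scrublet called 0 of these barcodes doublets. It called 1.74% of all passing barcodes, but only 0.159% in suffix 1, so doublets there may have been missed.

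The values that chose the barcodes are given as a description. Cd3d ran from 610 to 2907 CPM per barcode with a median of 1212 CPM. Sox13, an HMG-box factor, had a median of 140 CPM and a highest value of 775 CPM. Blk, a Src-family kinase, had a median of 320 CPM and a highest value of 934 CPM. UMIs of both Sox13 and Blk were found in 129 barcodes, of Sox13 alone in 14 and of Blk alone in 17. Most barcodes thus held both genes. The 3 barcodes nearest the Sox13 and Blk limit had 101, 107 and 107 CPM inside it, and 94.5, 88.1 and 82.2 CPM outside. Those nearest the Cd3d limit had 610, 626 and 660 CPM inside and 594, 583 and 565 CPM outside. A further 78 barcodes passed the Sox13 and Blk limit with less Cd3d, 33 of them early T progenitor-like. The plot of Cd3d against Sox13 and Blk shows the limits.

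**Figure D1:**
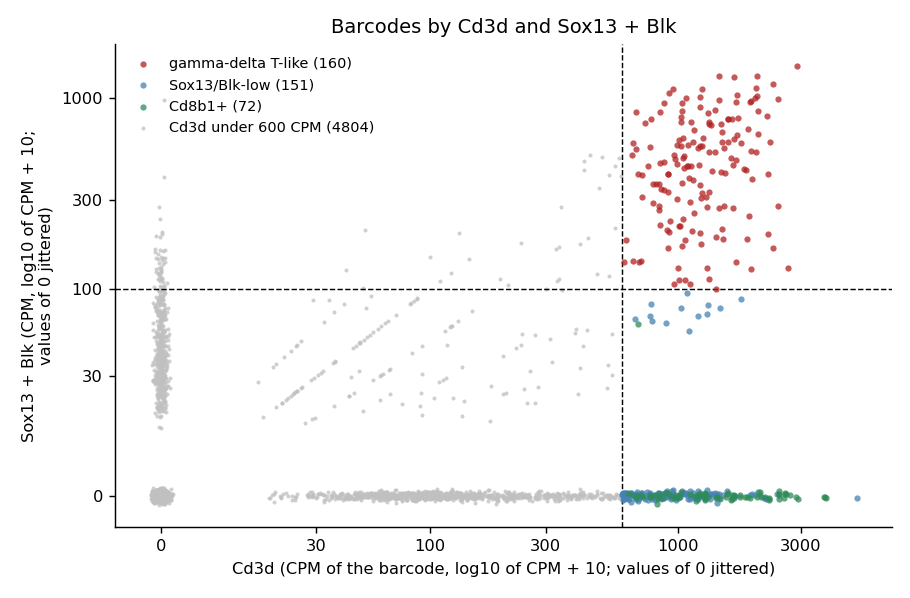
Each point is 1 barcode that passed the filters, with Cd3d CPM across and Sox13 plus Blk CPM up, both on log10 axes after adding 10. The 160 gamma-delta T-like barcodes fill the upper right quadrant, and the 151 Sox13/Blk-low and 72 Cd8b1+ barcodes lie mostly at 0 on the vertical axis.

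Other kinds of barcode serve for comparison. The 151 Sox13/Blk-low barcodes passed the Cd3d limit with less than 100 CPM of Sox13 and Blk and fewer than 3 UMIs of Cd8b1. The 72 Cd8b1+ barcodes passed it with at least 3 UMIs of Cd8b1. Below the Cd3d limit, 1458 barcodes were early T progenitor-like (Spi1 and Bcl11a), 1531 ILC2-like (Gata3 and Rora) and 1110 NK/ILC1-like (Nkg7 and Xcl1). At least 500 CPM of the natural killer genes Nkg7 and Xcl1 were held by 6 gamma-delta T-like barcodes (3.75%), against 87 Sox13/Blk-low barcodes (57.6%). For this reason values over the other 64 Sox13/Blk-low barcodes are given too, a choice made after the values were seen.

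Of the 5 marker genes of the cell type, 2 were not used by the rule. Maf, a bZIP factor of interleukin-17 cells, averaged 435 CPM over the gamma-delta T-like barcodes, against 90.5 CPM in Sox13/Blk-low barcodes. The log2 ratio was 2.27 (2.05 to 2.49), and 1.85 (1.58 to 2.12) without the barcodes with the natural killer signal. Maf stood at 230 CPM in ILC2-like barcodes, with 63.0 CPM in NK/ILC1-like ones and 20.4 CPM in those like early T progenitors. It was widespread: with each barcode thinned to 6913 UMIs, 91.1% of gamma-delta T-like barcodes held a Maf UMI, against 12.4% of early T progenitor-like barcodes. Unthinned, 95% and 28.9% held it, with median depths of 14816.5 and 26881.5 UMIs.

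Cd163l1 did not set these cells apart from their neighbours. It averaged 356 CPM in gamma-delta T-like barcodes, against 335 CPM in Sox13/Blk-low, 333 CPM in ILC2-like and 269 CPM in NK/ILC1-like barcodes. The log2 ratio over Sox13/Blk-low barcodes was 0.09 (-0.05 to 0.23). In Cd8b1+ and early T progenitor-like barcodes it was at 16.7 and 27.2 CPM. The label thus rests on Maf beyond the genes that chose the barcodes, since the genes of the receptor chains were not analysed here.

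**Figure D2:**
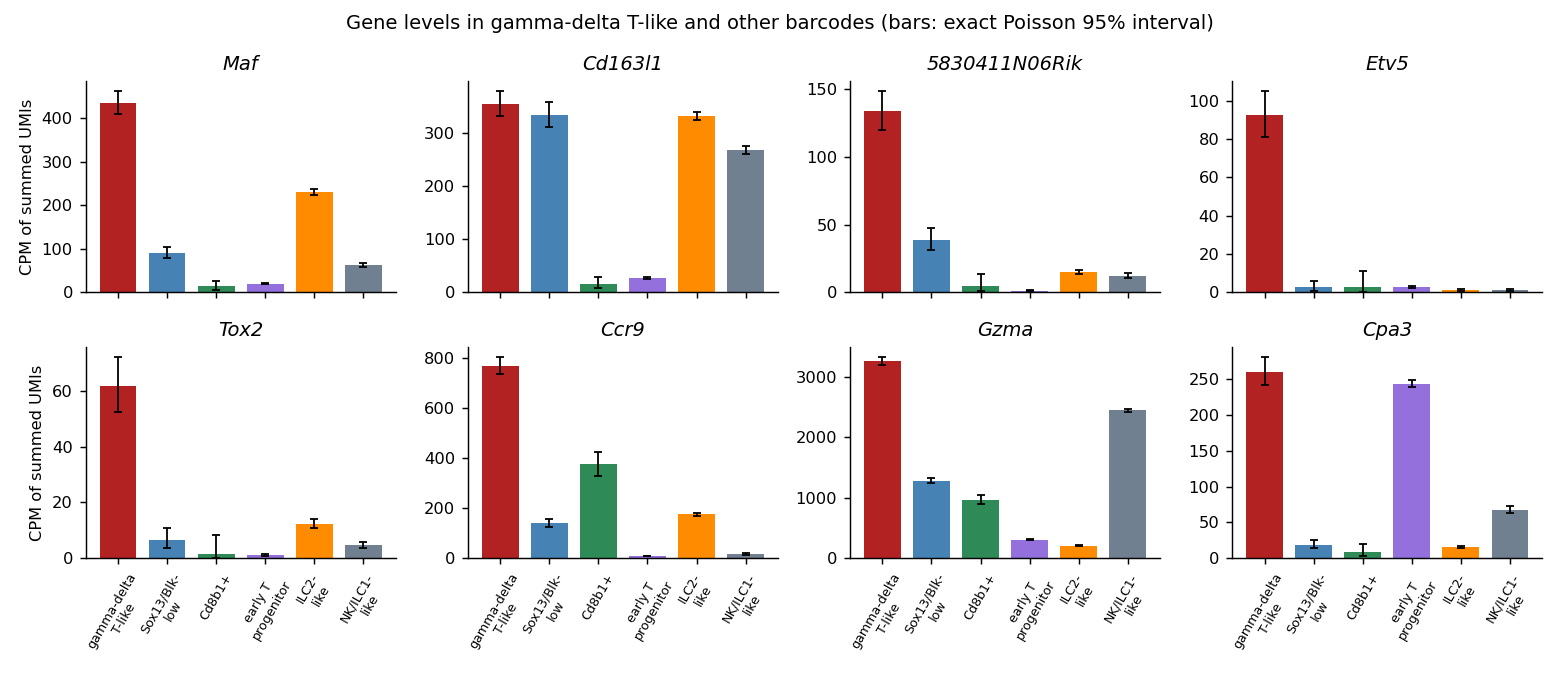
Each bar is the CPM of the summed UMIs of 1 gene in 1 kind of barcode, with exact Poisson 95% intervals. Etv5 stands at 92.4 CPM in gamma-delta T-like barcodes and at 3.0 CPM or less elsewhere, whereas Cd163l1 is shared with Sox13/Blk-low, ILC2-like and NK/ILC1-like barcodes.

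Over the Sox13/Blk-low barcodes, 605 of 9110 genes with at least 20 UMIs were at least 2-fold higher (6.64%) and 563 were at least 2-fold lower (6.18%). The median log2 ratio of all genes was 0.04. Over the 64 barcodes without the natural killer signal, 6.54% of 8492 genes were 2-fold higher and 2.92% were 2-fold lower. These percentages are the background for each count of a list below.

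The interleukin-17 programme was higher in the gamma-delta T-like than in the Sox13/Blk-low barcodes. Of its 25 listed genes 2 had chosen the barcodes, and of the other 23, 14 were at least 2-fold higher and 0 were 2-fold lower than in Sox13/Blk-low barcodes, with a median log2 ratio of 1.43. Genes such as Il17a and Il23r passed the UMI limit through the gamma-delta T-like barcodes alone. Il17a had 85 UMIs in these and 3 in Sox13/Blk-low barcodes. Such genes could not be counted as 2-fold lower than in Sox13/Blk-low barcodes. The counts of higher and lower genes thus describe the UMI limit as well. Without the natural killer signal in the comparison the counts were 10 and 0, with a median of 0.82. Over ILC2-like barcodes, where 7.13% of 10823 genes were 2-fold higher and 9.42% 2-fold lower, 10 of the 23 were higher and 4 lower, with a median of 0.17. Over early T progenitor-like barcodes, where 11.4% of 11629 genes were higher and 13.0% lower, 17 were higher and 2 lower, with a median of 2.83. ILC2-like barcodes themselves held 230 CPM of Maf and 333 CPM of Cd163l1.

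Etv5, an ETS-family factor, had the highest ratio over Sox13/Blk-low barcodes among genes with at least 50 CPM in either. It averaged 92.4 CPM in gamma-delta T-like barcodes, against 2.6 CPM in Sox13/Blk-low barcodes, a log2 ratio of 5.13 (3.99 to 6.59). Over the rest of the sort, at 2.1 CPM, the log2 ratio was 5.44 (5.16 to 5.72), below that of Iqch. Per barcode Etv5 ran from 0 through a median of 41.4 CPM to 575 CPM, so it was not uniform. After thinning, 38.9% of gamma-delta T-like barcodes held a UMI of it, against 2.34% of early T progenitor-like barcodes.

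Sox4, another HMG-box factor, averaged 463 CPM against 101 CPM in Sox13/Blk-low barcodes, a log2 ratio of 2.20 (1.99 to 2.41). It was as abundant in Cd8b1+ barcodes, at 456 CPM, and higher in early T progenitor-like barcodes, at 590 CPM. Sox4 thus stands apart from ILC2-like (54.2 CPM) and NK/ILC1-like (44.3 CPM) barcodes but not from other thymocyte-like ones. 5830411N06Rik averaged 134 CPM, against 38.6 CPM in Sox13/Blk-low barcodes and 8.1 CPM in the rest of the sort. Its log2 ratio over Sox13/Blk-low barcodes was 1.79 (1.45 to 2.14), and 0.83 (0.48 to 1.21), less than 2-fold, without the natural killer signal.

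The receptors by which interleukin-17 cells respond were rare. Il1r1 averaged 23.7 CPM against 2.2 CPM in Sox13/Blk-low barcodes, and Il23r 9.7 CPM against 0.4 CPM, which was a single UMI. Il17re, part of a receptor for interleukin-17C, averaged 25.6 CPM against 2.6 CPM. These ratios rest on few counts in Sox13/Blk-low barcodes. Igf1r, the receptor of insulin-like growth factor 1, averaged 47.4 CPM against 10.5 CPM, and Ramp1, a co-receptor of calcitonin-family peptides, 228 CPM against 85.6 CPM. Other genes of the list were near even: Zbtb16 had 38.8 CPM against 28.5 CPM (log2 ratio 0.44, -0.02 to 0.92), Ccr6 13.2 CPM against 15.4 CPM and Cxcr6 152 CPM against 186 CPM.

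The type 1 programme, of interferon-gamma and cytotoxic genes, stood lower in the gamma-delta T-like than in the Sox13/Blk-low barcodes. Of 17 measured genes 15 were at least 2-fold lower and 1 was 2-fold higher, with a median log2 ratio of -5.25. Without the natural killer signal, 7 of 11 measured genes were 2-fold lower and 1 was higher, with a median of -1.47. Nkg7 and Xcl1, whose levels chose this smaller set, are among the 11. These counts describe the comparison group as well, since genes such as Eomes and Ncr1 passed the limit of 20 UMIs through Sox13/Blk-low barcodes alone. Over Cd8b1+ barcodes, 5 of 7 measured genes were 2-fold higher and 1 was lower, with a median of 1.36. There 11.4% of all 8308 genes were higher and 6.21% lower. Over the rest of the sort, 15 of 17 were 2-fold lower and 2 higher, with a median of -3.44. The shares over all genes there were 10.3% lower and 11.0% higher. Genes not measured against Cd8b1+ barcodes, such as Ccl5, Ifng and Tbx21, had under 20 UMIs in the gamma-delta T-like barcodes. They passed the limit over the rest of the sort through those other barcodes, so these counts describe the rest as well. Xcl1, a chemokine, averaged 7.8 CPM against 1239 CPM in Sox13/Blk-low barcodes, and Ifng 0.4 CPM, a single UMI, against 78.2 CPM. Tbx21 averaged 1.9 CPM against 29.9 CPM. Eomes, a T-box factor, and Ncr1, a natural killer receptor, were at 0 UMIs of 2575053, which allows up to 1.17 CPM, and Tbx21 or Eomes was found in 3 of the 160 barcodes. The 15 markers of NK/ILC1 cells summed to 3447 CPM, with 13 detected and Ncr1 and Eomes at 0, against 8126 CPM in Sox13/Blk-low barcodes. Per barcode this sum ran from 0 to 33521 CPM. The part that natural killer-like barcodes play in the comparison was not tested beyond leaving them out.

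The 1 gene of that list that was 2-fold higher than in Sox13/Blk-low barcodes was Gzma, which encodes granzyme A. It averaged 3263 CPM in gamma-delta T-like barcodes, against 1284 CPM in Sox13/Blk-low barcodes, 709 CPM in those without the natural killer signal and 2450 CPM in NK/ILC1-like barcodes. The log2 ratio was 1.35 (1.29 to 1.41) over all Sox13/Blk-low barcodes and 2.20 (2.09 to 2.31) over the smaller set. Per barcode Gzma ran from 0 through a median of 1594 CPM to 33521 CPM. After thinning, 71.3% of gamma-delta T-like barcodes held a UMI, against 31.3% of early T progenitor-like barcodes, and unthinned 73.8% against 41.8%. Gzma was the bulk of the 3447 CPM of the natural killer list in these cells, while Gzmc, another granzyme, was at 6 UMIs.

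Cpa3, a carboxypeptidase best known from mast cells, was also abundant. It averaged 261 CPM in gamma-delta T-like barcodes, against 18.9 CPM in Sox13/Blk-low barcodes, a log2 ratio of 3.79 (3.34 to 4.27). Early T progenitor-like barcodes held as much, 243 CPM, and after thinning more of them had a UMI (53.8%) than of the gamma-delta T-like barcodes (46.5%). Of the 8 mast cell or basophil markers 3 were detected, and Mcpt8, Ms4a2, Fcer1a, Gata2 and Prss34 were at 0. Of the 160 barcodes, 85 held both Cpa3 and Gzma, 33 Gzma alone, 4 Cpa3 alone and 38 neither.

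The other genes with the highest ratios over Sox13/Blk-low barcodes belonged to no single list. Iqch averaged 66.0 CPM against 5.7 CPM, and Tox2, an HMG-box factor related to Tox, 61.7 CPM against 6.6 CPM (log2 ratio 3.23, 2.46 to 4.10). Tnfsf11, the cytokine RANKL through which gamma-delta and lymphoid tissue inducer cells act on thymic epithelium, averaged 76.5 CPM against 9.2 CPM. The highest 15 were completed by Tubb2b, Endou, 4932438H23Rik, Heg1, Tmem121, P2rx7, Myo6, Ccr9, Pdlim4 and Myb, with log2 ratios of 2.39 and above. Lowest were Gzmc, Cd244, Ifng, Ifitm1, Xcl1, Dapk2, Ccl5, Klra5, Klrd1 and Pdzk1, mostly genes of natural killer cells. Reads of Tubb2b and Klra5 may be shared with near-identical family members.

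**Figure D3:**
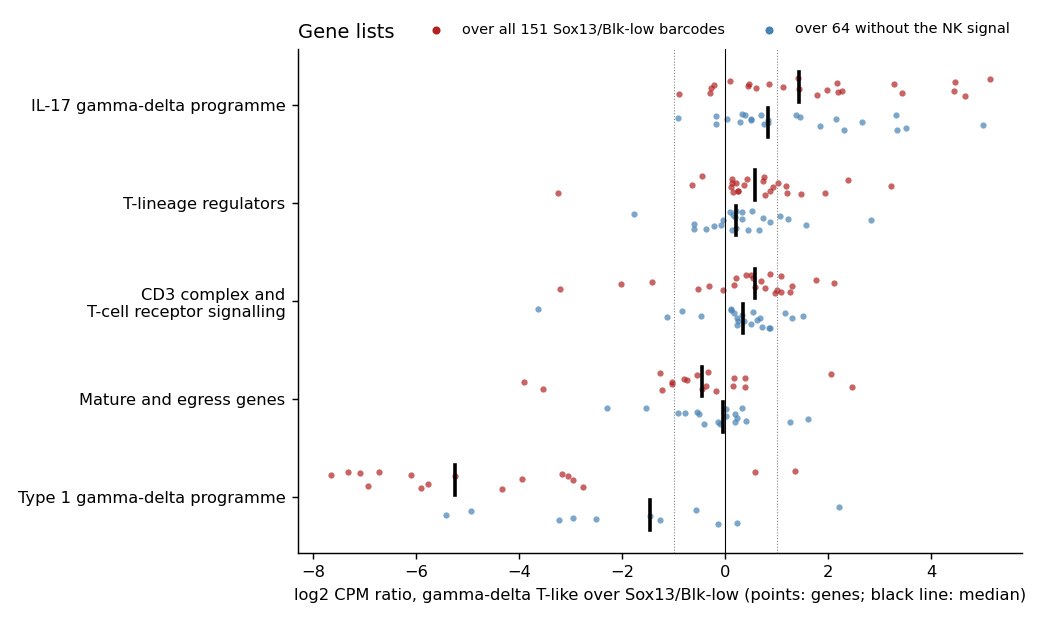
Each point is a gene of a list, placed by its log2 CPM ratio of gamma-delta T-like over Sox13/Blk-low barcodes (red) or over the 64 of these without the natural killer signal (blue), and black lines are medians. The interleukin-17 medians are 1.43 and 0.82, and the type 1 medians -5.25 and -1.47. Nkg7 and Xcl1, whose levels chose the 64 barcodes, are among the type 1 genes.

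The genes of the CD3 complex and of receptor signalling were led by the signalling chain Cd247. It averaged 517 CPM in gamma-delta T-like barcodes, against 119 CPM in Sox13/Blk-low barcodes and 18.8 CPM in the rest of the sort. Cd3e averaged 405 CPM against 166 CPM, and the kinase Zap70 159 CPM against 81.7 CPM. Of 23 measured genes 7 were 2-fold higher than in Sox13/Blk-low barcodes and 3 were 2-fold lower, and without the natural killer signal 3 and 2 of 22. Cd3g, at 1354 CPM against 1673 CPM, was nearly even. The co-stimulatory receptor Cd28 was among the lower ones, with 7.8 CPM against 71.6 CPM, and was lower without the natural killer signal as well (log2 ratio -3.64, -4.41 to -2.94). Over the rest of the sort, where 11.0% of 12482 genes were 2-fold higher and 10.3% 2-fold lower, 15 of these 23 genes were 2-fold higher and 0 lower. Most barcodes of that rest lay below the Cd3d limit. Over Cd8b1+ barcodes, 1 of the 23 was 2-fold higher and 6 were lower, with a median log2 ratio of -0.16. The shares over all genes there were 11.4% higher and 6.21% lower. This list thus does not set these cells apart from Cd8b1+ barcodes.

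Among T-lineage regulators, 7 of 24 were 2-fold higher than in Sox13/Blk-low barcodes and 1 was lower, with a median log2 ratio of 0.58. Without the natural killer signal 4 were higher and 1 lower, with a median of 0.21. Bcl11b, the T-commitment factor, averaged 365 CPM against 95.7 CPM, and Myb 143 CPM against 27.2 CPM. Id2, a repressor used by innate lymphoid cells, was the lower one, at 40.4 CPM against 381 CPM. Id3, the related repressor induced by receptor signals, averaged 288 CPM against 169 CPM, and 248 CPM without the natural killer signal. The early response gene Egr1 averaged 55.1 CPM against 24.6 CPM, but it was found in only 39 of the 160 barcodes. A single barcode held 41 of its UMIs. Tcf7 (318 CPM against 247 CPM) and Lef1 (245 CPM against 135 CPM), a related pair of HMG-box factors, were less than 2-fold higher. Over Cd8b1+ barcodes, 9 of the 24 regulators were 2-fold higher and 5 were lower, with a median log2 ratio of -0.18.

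The gamma-delta T-like barcodes held little of the genes that mark receptor gene rearrangement. Rag1, a recombinase, averaged 8.5 CPM, against 12.7 CPM in Sox13/Blk-low and 461 CPM in Cd8b1+ barcodes, and was found in 3 of the 160. Of 10 measured immature thymocyte genes 0 were 2-fold higher than in Sox13/Blk-low barcodes and 1 was lower, or 2 without the natural killer signal. The 2-fold counts against Cd8b1+ barcodes, where 11.4% of 8308 genes were higher and 6.21% lower, were 1 higher and 10 lower of 13. The Cd8b1+ barcodes are shallow, with a median of 4537.5 UMIs.

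Receptors that guide and sustain these cells stood on both sides of the comparison. Ccr9, a chemokine receptor of thymocytes and gut-homing cells, averaged 771 CPM against 140 CPM in Sox13/Blk-low barcodes and 62.8 CPM in the rest of the sort. After thinning, 91.1% of gamma-delta T-like barcodes held a Ccr9 UMI, against 4.24% of early T progenitor-like barcodes. Cxcr3, a receptor of type 1 cells, averaged 3.1 CPM against 69.4 CPM. Of 13 measured chemokine receptors 4 were 2-fold higher and 4 were 2-fold lower, and of 32 cytokine receptor and signalling genes 5 were higher and 7 lower. Without the natural killer signal these counts were 3 and 1 of 12, and 3 and 7 of 31. Ifngr1, the interferon-gamma receptor, averaged 748 CPM against 193 CPM, and Il2rb, a receptor chain for interleukins 2 and 15, 14.0 CPM against 109 CPM. Of 19 mature and egress genes 2 were higher and 6 lower, with Lgals3, a galectin, at 48.2 CPM against 719 CPM. Without the natural killer signal 2 of 18 were higher and 2 lower, and the median was -0.04 against -0.45 with it.

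Cell cycle genes were close to the Sox13/Blk-low level. Of 30 S phase genes and 40 G2/M genes, 0 passed 2-fold in either direction, with medians of 0.14 and 0.16. The sign of the G2/M median changed between alternatives. Thinned barcodes held a median of 13 G2/M UMIs, with quartiles at 5 and 62, against 16 in Sox13/Blk-low, 89.5 in Cd8b1+ and 9 in ILC2-like barcodes. Mki67, a proliferation gene, was detected after thinning in 36.9% of gamma-delta T-like and 38.3% of early T progenitor-like barcodes.

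Il17a was found in 17 of the 160 barcodes, 10.6% (6.31 to 16.5%), 1 of suffix 1 and 16 of suffix 2. They held 85 Il17a UMIs: 19, 14, 14, 7, 7, 6, 5, 3 and 2 in 9 barcodes and 1 each in the other 8. The 7 barcodes with at least 5 UMIs thus held 72 of the 85. After thinning, 7.64% of gamma-delta T-like barcodes held a UMI, against 0.073% of early T progenitor-like barcodes. The gamma-delta T-like barcodes held 66.4% of all Il17a UMIs of the sort. Of the 12 other barcodes with Il17a, 5 were ILC2-like, 2 Sox13/Blk-low and 2 early T progenitor-like. Of these 12, 4 passed the Sox13 and Blk limit but not the Cd3d limit, and they held 29 of 43 UMIs.

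The 17 barcodes with Il17a differed from the 143 without it in both directions, and here more genes were lower than higher. Of 7835 genes, 3.31% were at least 2-fold higher and 14.9% at least 2-fold lower. Several genes with high ratios over Sox13/Blk-low barcodes were lower with Il17a. Etv5 averaged 10.2 CPM with Il17a and 103 CPM without it, a log2 ratio of -3.34 (-5.63 to -1.78). Gzma averaged 447 CPM with Il17a and 3628 CPM without it, and Cpa3 33.9 CPM and 290 CPM. Sox4 averaged 108 CPM with Il17a and 509 CPM without it, a log2 ratio of -2.23 (-2.79 to -1.73).

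Other genes were higher with Il17a. S100a6, a calcium-binding protein, averaged 2585 CPM with Il17a and 689 CPM without it, and was found in 17 of 17 barcodes. Per barcode it ran from 56.8 through a median of 3012 to 6202 CPM with Il17a, and from 0 through 85.0 to 5702 CPM without it, so the ranges overlapped. Capg, an actin-capping protein, averaged 664 CPM and 175 CPM, and Cxcr6, a chemokine receptor of tissue lymphocytes, 376 CPM and 123 CPM. Cd163l1 averaged 783 CPM with Il17a and 301 CPM without it, whereas its neighbour 5830411N06Rik averaged 20.3 CPM and 148 CPM. Of the interleukin-17 list, 12 of 24 measured genes were 2-fold higher and 4 were lower. Il23r averaged 33.9 CPM with Il17a and 6.6 CPM without it, Il1r1 50.8 CPM and 20.2 CPM, Il18r1 139 CPM and 43.0 CPM and Zbtb16 84.7 CPM and 32.9 CPM.

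T-lineage regulators stood the other way. Of 24 genes, 0 were 2-fold higher and 9 were 2-fold lower with Il17a. Their median log2 ratio was -0.70, against -0.19 over all genes. Tcf7 averaged 77.9 CPM with Il17a and 349 CPM without it, Lef1 81.3 CPM and 266 CPM, and Bcl11b 159 CPM and 392 CPM. Cd24a, which is lost as gamma-delta thymocytes mature, followed with 6.8 CPM and 54.0 CPM. Cd27, a gene of the type 1 list, averaged 47.4 CPM with Il17a and 254 CPM without it. Il7r, the interleukin-7 receptor, was higher, at 346 CPM with Il17a and 128 CPM without it. Among the 10 highest ratios were those of Bcl2a1d, Phf11b, Ifi208, 1700012B07Rik, Plxnd1, Jaml, Map1b, Capg and H2-Q7, of which Bcl2a1d, Phf11b, Ifi208 and H2-Q7 have near-identical copies. The 10 lowest were of Tubb2a, Iqch, Marcks, Etv5, Tubb2b, Inpp4b, Cpa3, Gzma, Cd24a and Endou.

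Il17f was looked at in the same way, a choice made after the values were seen. It was found in 21 barcodes, 13.1% (8.31 to 19.4%), all of suffix 2. They held 74 UMIs, with 15, 9, 6, 5 and 4 in the highest 5. After thinning, 10.2% of gamma-delta T-like barcodes held a UMI, against 0.146% of early T progenitor-like barcodes. Il17a and Il17f were found together in 2 barcodes, Il17a alone in 15, Il17f alone in 19 and neither in 124. The barcodes with both were thus 11.8% of those with Il17a and 9.52% of those with Il17f. Over all gamma-delta T-like barcodes the shares were close to these, at 13.1% with Il17f and 10.6% with Il17a. The counts therefore do not show that the cytokines exclude each other. Outside these cells, 14 barcodes held 50 UMIs of Il17f, and 1 of them held both cytokines.

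**Figure D4:**
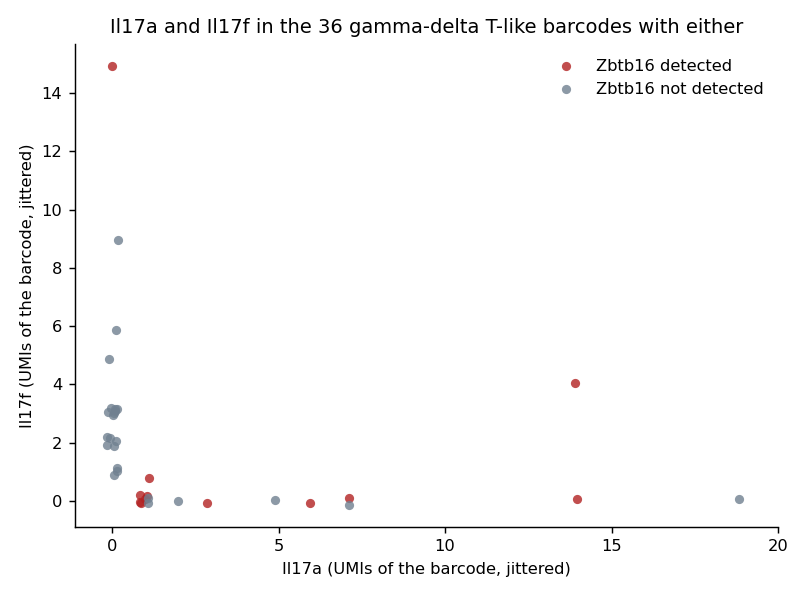
Each of the 36 gamma-delta T-like barcodes with a UMI of Il17a or Il17f is placed by its UMIs of Il17a (across) and Il17f (up), in red where Zbtb16 was detected. Nearly all points lie on an axis, and the 2 that do not had 1 and 14 UMIs of Il17a. Since both genes were found in few barcodes, this does not show that they exclude each other.

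The barcodes with Il17a, with Il17f and with neither are set side by side by detection, and the 2 barcodes with both count in each. Etv5 was detected in 3 of the 17 barcodes with Il17a, 12 of the 21 with Il17f and 68 of the 124 with neither. Gzma was detected in 5, 14 and 99 of them and Sox4 in 6, 18 and 102. These 3 genes were thus seen in most barcodes with Il17f and in few with Il17a. Zbtb16 was detected in 11, 3 and 31, Il23r in 6, 0 and 12, and Cxcr6 in 14, 5 and 57. The 0 of 21 for Il23r allows a share of up to 16.1% (exact 95% interval). Maf was found in 17, 21 and 116 of them. The median depths were 15679, 14189 and 15114 UMIs.

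5830411N06Rik was detected in 1 of 17 barcodes with Il17a, 13 of 21 with Il17f and 49 of 124 with neither. Its level was 259 CPM with Il17f and 116 CPM without it, a log2 ratio of 1.16 (0.78 to 1.52). Cd163l1 was detected in 15, 16 and 78 of these barcodes. Over all 160, 34 barcodes held both neighbours, 73 Cd163l1 alone, 28 5830411N06Rik alone and 25 neither.

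Over all genes, 3.14% were 2-fold higher and 7.35% 2-fold lower with Il17f than without it. Of 24 measured genes of the interleukin-17 list 1 was 2-fold higher, 5830411N06Rik, and 6 were lower. The largest ratio was that of S100a3 (148 CPM with Il17f and 1.3 CPM without it), but 46 of its 47 UMIs there were in 1 barcode. Gadd45b, a stress response gene, averaged 75.8 CPM with Il17f and 16.8 CPM without it, and 7 of 21 barcodes held it. Id3 averaged 448 CPM and 265 CPM, and Ltb, which encodes lymphotoxin beta, 1449 CPM and 835 CPM. Lgals3 averaged 9.5 CPM with Il17f and 53.6 CPM without it.

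**Figure D5:**
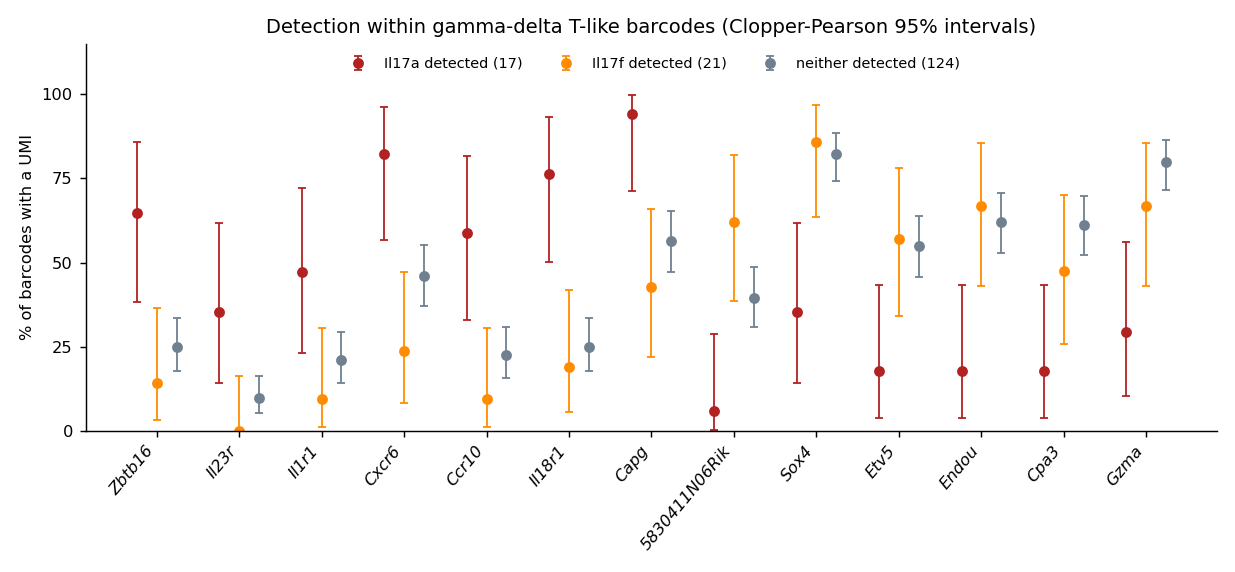
Points give the share of gamma-delta T-like barcodes with a UMI of each gene, for those with Il17a (17), with Il17f (21) and with neither (124), with exact 95% intervals, and 2 barcodes count in both of the first groups. From Zbtb16 to Capg the highest share is with Il17a, and from 5830411N06Rik to Gzma the lowest is.

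Zbtb16 itself was found in 43 of the 160 barcodes, 26.9%, 6 of the 7 of suffix 1 and 37 of the 153 of suffix 2. PLZF is known for directing innate-like T cells. Against the 117 barcodes without it, 2.68% of genes were 2-fold higher and 8.22% were 2-fold lower. Ccr10, a chemokine receptor of skin-homing lymphocytes, averaged 226 CPM with Zbtb16 and 21.1 CPM without it (log2 ratio 3.42, 2.91 to 3.97). S100a6 averaged 2205 CPM and 351 CPM, Cxcr6 358 CPM and 63.8 CPM, and Serpinb1a, a protease inhibitor, 162 CPM and 24.9 CPM. The neighbours on chromosome 7 again stood opposite each other, Cd163l1 with 779 CPM and 175 CPM and 5830411N06Rik with 32.4 CPM and 177 CPM. Thy1, a T-lineage surface protein, averaged 73.9 CPM with Zbtb16 and 316 CPM without it. Il17a averaged 64.8 CPM with Zbtb16 and 19.4 CPM without it, whereas Il17f stood at 25.9 CPM and 29.9 CPM. However, 15 of the Il17f UMIs with Zbtb16 were in 1 barcode. Il17a was uneven too: the barcode with the most, 19 UMIs, held 0 of Zbtb16, and the next, with 14 each, held 1 and 3. By detection, Il17f was found in 3 of the 43 barcodes with Zbtb16 and in 18 of the 117 without it.

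The 7 barcodes of suffix 1 are too few for more than their values. They averaged 177 CPM of Zbtb16, against 32.2 CPM in suffix 2, 879 CPM of Cd163l1 against 331 CPM, and 0 CPM of 5830411N06Rik against 140 CPM. Gzma averaged 7999 CPM against 3035 CPM, with 458 of its 947 UMIs in 1 barcode, and 4669 CPM without that barcode. Ptcra, the pre-T-cell receptor chain, had 18 of its 19 UMIs in 1 barcode. Il17f, like 5830411N06Rik, was at 0 of 118387 UMIs in them, which allows up to 25.3 CPM. Since the suffixes are tied to no stage, these values cannot be read as an earlier or later embryo.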

How the data were processed

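Per the labels' protocols, DN1 cells of embryonic thymus went through the 10x 3′ v3 kit, and the authors deposited raw UMI counts of both libraries in 1 table. Per the submitters' processing notes, the build was GRCm38 and the tools were Cell Ranger 3.0.2 and STAR. How cells were called is not given in the sources used here. Of the table's columns, 0 are tied to a library by a label, so barcodes were pooled as 1 sample and no test was run. The gates, lists and cells were chosen with earlier results of these data known.

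CPM were computed from summed counts, with exact Poisson intervals. Ratios carry conditional exact binomial intervals and shares Clopper-Pearson intervals, at 95% and for counting error only. A list was read over genes with at least 20 UMIs in both groups together and a 2-fold ratio. An empty group was set to a floor of 3 counts. Shares were also taken after thinning each barcode to 6913 UMIs, which left out 519 barcodes. Doublets were called per suffix with Scrublet (scanpy 1.11.5) and not removed. Genes were named by a rule: the markers, the most abundant and most different members of each list, and the 15 highest and 10 lowest ratios (10 and 10 for splits by Il17a) among genes of at least 50 CPM. Egr1, Rag1, Ptcra, Ltb, Thy1, Ccr10, S100a6, Cxcr6 and the other genes described beyond it, the splits by Il17f, and the subset without natural killer genes were chosen after the values were seen. Promoters came from RefSeq (GRCm38.p6) and gene positions from GENCODE M21. Python 3.11.15, numpy 2.4.6, scipy 1.17.1 and matplotlib 3.10.9 were used, and ratios were tested on simulated data. Values of 1 locus with its reporter and of some named genes are not reported here, and receptor chain genes were not analysed here. Alternatives were other Cd3d, Sox13 and Blk limits, each suffix alone, other UMI minimums, scaling, doublets and the mean of per-barcode CPM.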

Additional observations from a re-analysis of the deposited data

Results flagged for a closer look

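Signal also lay in barcodes that the cell filters had removed. There, 5 barcodes passed the Cd3d, Sox13 and Blk and Cd8b1 limits, all of suffix 2. Of these, 4 exceeded the mitochondrial limit and 2 had under 500 genes, with a median of 1106 UMIs. They summed to 1039 CPM of Maf and 2597 CPM of Cd3d, with 0 UMIs of Il17a.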

How the results depend on the processing

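Limits of 400 or 900 CPM of Cd3d, 50 or 200 CPM of Sox13 and Blk, 1000 genes or 5% mitochondrial UMIs gave 131 to 174 barcodes, 17 to 20 of them with Il17a. Over Sox13/Blk-low barcodes the log2 ratio of Etv5 was 4.05 to 5.30 in the alternatives run, and the median of the interleukin-17 list 0.82 to 2.02. The medians of the other lists and the 2-fold counts kept their values in most alternatives (133 of 150 medians, 24 of 30 counts), as did 252 of 321 named-gene ratios, but only 3 of 22 of these without the natural killer signal and 5 of 24 in suffix 1, and 0 list medians or gene ratios of 2-fold or more turned sign. Suffix 1 alone left 7 barcodes, 1 with Il17a, and then 335 genes were 2-fold higher. Its medians were -2.16 for the type 1, 0.078 for the CD3, -1.15 for the mature and egress and -1.14 for the chemokine receptor lists, and all genes together shifted by -0.12. Over the rest of the sort, suffix 1 alone gave 4396 genes 2-fold higher and 831 lower, a type 1 median of -1.05 and a shift of 0.51 over all genes. With at least 100 UMIs, 205 genes were higher and 178 lower than in Sox13/Blk-low barcodes, and with at least 1 UMI 1469 and 1565. Over the rest, 580 and 4618 genes were higher. Without the natural killer signal 248 genes were lower, and the type 1 median was -1.47.

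The S phase median was above 0 throughout, at 0.020 and 0.36 with Cd3d limits of 400 and 900 CPM, 0.52 in suffix 1 and 0.0016 without the natural killer signal. The G2/M median changed sign, at 0.29 and -0.22 with these limits, 0.27 and -0.18 with 50 and 200 CPM of Sox13 and Blk, -0.79 in suffix 1, 0.39 in suffix 2, 0.38 from the barcodes' own CPM and -0.12 without the natural killer signal. With at least 2 UMIs of each, 1 barcode held both Il17a and Il17f. The cause of these differences was not tested. The split by Il17a could not be made in suffix 1. No paired analysis was possible because no column is tied to a library. Rare transcripts such as Il23r rest on 25 UMIs.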

Other observations

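The reporter rows of the strain gave 2.46 tagBFP UMIs per Id2 UMI in the gamma-delta T-like barcodes, 0.503 hCD2 UMIs per Gata3 UMI, 0.444 mTeal UMIs per Rora UMI and 0.0414 TdTomato UMIs per Bcl11b UMI. The tagBFP row was thus the only one of the 4 with more UMIs than its locus gene, 256 against 104.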
